A study of Rattus norvegicus with 8 samples.

Results

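Of 50 genes of the extracellular matrix that were tested in primary cultures of rat semicircular canal duct (SCCD) epithelium, 1 was lower and 1 was higher after dexamethasone (4%, against 2.69% of all probe sets tested). Vcan (versican), a large chondroitin sulfate proteoglycan, fell to 0.403 of its control signal, and Col12a1, a collagen that lies along collagen fibrils, rose to 1.52 times its control signal. The matrix genes were the collagens, the laminins and 25 named genes, of which 2 (Thbs1 and Thbs2) were not analysed here. They were found by gene symbol among 15923 probe sets of the array: 80 probe sets, for 60 genes of 10411 with a symbol of their own. For each gene the probe set with the highest mean signal was taken, and 50 of the 60 genes passed the filter of a mean signal of at least 100.

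The SCCD is the epithelium that lines the semicircular canals of the inner ear and absorbs Na+ from the endolymph. Primary cultures from neonatal Wistar rats were grown on permeable supports, either with 100 nM dexamethasone, a synthetic glucocorticoid (4 arrays), or untreated (4 arrays), with 1 array per sample. How long the cultures on the arrays were exposed is not given in the sources used here. Each group is a culture of dissected canals rather than a cell line, and the labels give no genotype or other agent. The labels number the samples 1 to 4 in each group but do not say which came from separate animals or dissections, so a p-value here reflects only how far these samples spread, which may be technical. The signal is the intensity of a probe set in arbitrary units, and a change is a log2 fold change of dexamethasone over control.

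Epithelia rest on a basement membrane, a sheet in which laminins polymerise at the cell surface, collagen IV forms a second network, and nidogens and perlecan join both. Below it, fibrillar collagens form the fibres that give a tissue its tensile strength, other collagens and small proteoglycans coat those fibres, and elastin with fibrillins and fibulins gives recoil. Enzymes hydroxylate and crosslink the collagen chains, and matricellular proteins such as tenascin and periostin alter how cells hold on to the matrix. Glucocorticoids are known to alter matrix synthesis in skin, bone and the eye.

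As a check of the treatment, all 7 genes known to be induced by glucocorticoids that had a probe set rose. Of 13 epithelial genes with a probe set, 12 had a signal above the level of genes of other tissues on all 8 arrays. That level, the 95th percentile of 52 probe sets of genes such as those of pancreas, liver and muscle, was 141 to 228 and stands in for a detection call. Of 18 markers of fibroblasts and mesenchyme, 5 were above it on all 8 arrays (Vim, Tagln, S100a4, Cdh11 and Acta2) and 9 on none, with Pdgfra, Thy1, Twist1 and Prrx1 among the 9. Vim (vimentin) had 4843 to 6748 and Tagln (transgelin) 3457 to 5159. The summed signal of the fibroblast markers was 11483 to 14001 with dexamethasone and 12042 to 14535 in control. As deposited, replicates 1 and 2 of both groups had a trimmed mean signal of 500.1, and replicates 3 and 4 had 202 to 336. These are called array sets here, every array was rescaled to 500, and results are also given within each set, since their deposited scaling differed. RNA quality can be read from the ratio of the 3' to the 5' probe set of a gene. For beta-actin it was 6.17 to 8.07 with dexamethasone and 8.10 to 13.7 in control, without overlap. For Gapdh the groups overlapped. It was 2.14 to 3.18 with dexamethasone, and control replicates 1 and 4 lay within that range at 2.47 and 2.59. Control replicate 3 was the highest of all arrays (3.79) and control replicate 2 the lowest. Only the beta-actin ratio was used as a covariate, and a fit with the Gapdh ratio was not tested. As the beta-actin ratio differed between the groups without overlap, its fit cannot fully tell RNA quality apart from the treatment.

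Of the 50 matrix genes 2 changed with dexamethasone (4%), against 279 of all 10368 probe sets tested (2.69%) (limma, Benjamini-Hochberg adjusted p under 0.05). In each direction it was 1 matrix gene, against 195 probe sets higher (1.88%) and 84 lower (0.81%) over the whole array. At an unadjusted p under 0.05 there were 9 matrix genes (18%), against 16.1% of all probe sets, and 7 matrix genes (14%) had no overlap between the groups, against 11.0% of all. The median log2 fold change of the 50 genes was 0.051, and that of all probe sets tested was -0.023. Signals of 28 matrix genes were higher on average and of 22 lower, against 4762 higher and 5606 lower of all 10368 probe sets. For 7 matrix genes (14%) the 95% confidence interval (CI) lay within a 1.3-fold change in both directions, against 20.0% of all probe sets. These 7 were Col18a1, Plod1, Plod2, Ccn2, Fn1, Lamc1 and Bgn. In bulk cultures, fewer cells of one type and less RNA per cell cannot be told apart.

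**Figure D1:**
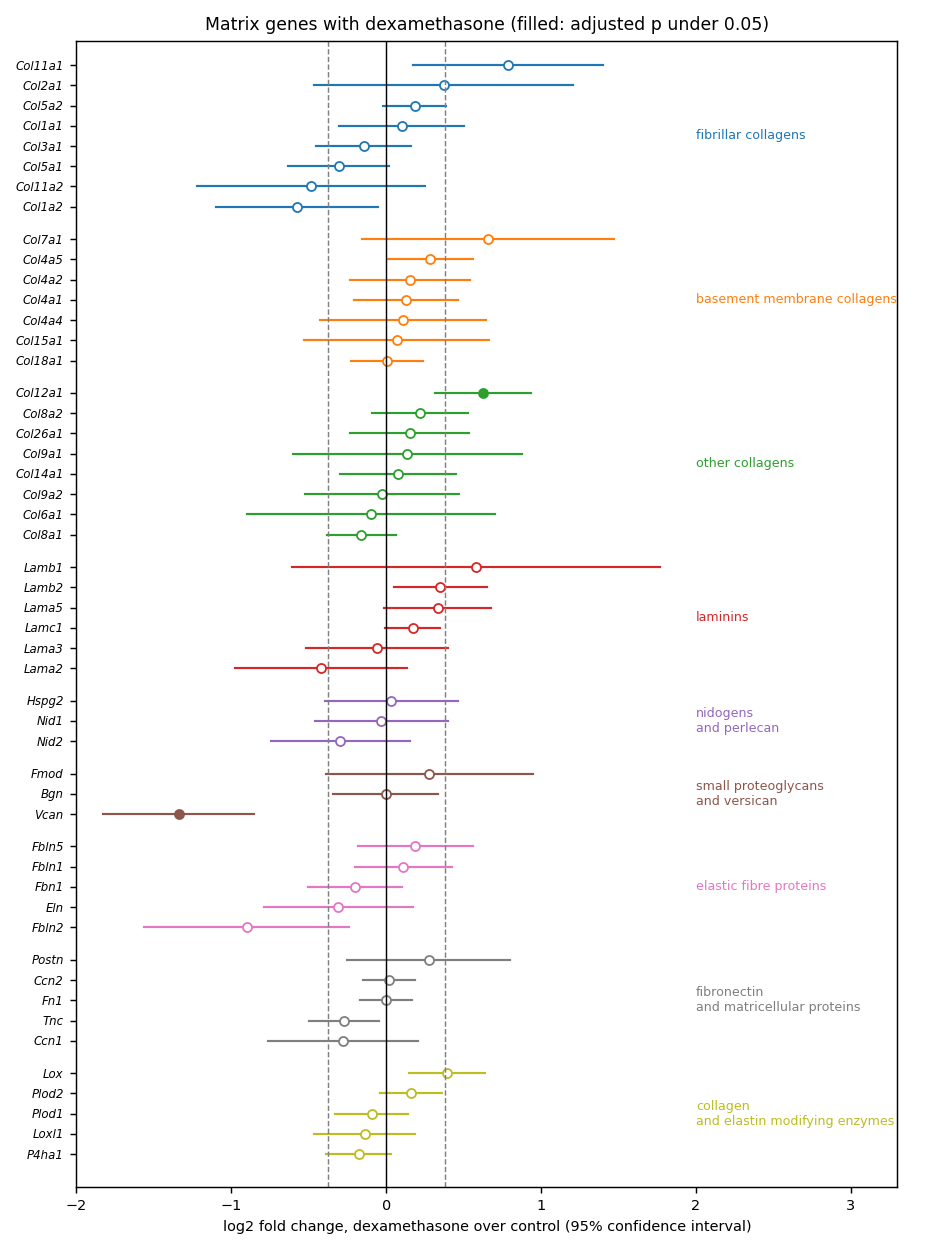
Log2 fold change of dexamethasone over control (x axis) for the 50 tested matrix genes, grouped by role, with 95% confidence intervals (CI) from limma (n = 4 arrays each). Filled points passed an adjusted p of 0.05 (Col12a1 and Vcan), the dashed lines mark a 1.3-fold change, and the other 48 genes have open points.

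Versican is a proteoglycan that binds hyaluronan and loosens the matrix around cells. The strongest of its 5 probe sets (1388142_at) had signals of 212, 255, 436 and 257 in dexamethasone-treated cultures, against 708, 743, 522 and 899 in control cultures (replicates 1 to 4). The highest dexamethasone value, in replicate 3, was below the lowest control value, also in replicate 3. Means were 289.8 ± 99.6 with dexamethasone and 718 ± 155 in control (SD, n = 4 each). The log2 fold change was -1.34 (SE 0.22, 95% CI -1.83 to -0.85, limma adjusted p = 0.00724), and the groups did not overlap (two-sided exact permutation p = 0.0286, the smallest that 4 arrays against 4 allow). It was -1.64 on replicates 1 and 2 and -1.03 on replicates 3 and 4.

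A second versican probe set (1388054_a_at) gave the same direction, with signals of 269, 248, 242 and 225 in dexamethasone-treated cultures, against 528, 407, 329 and 511 in control cultures, a log2 fold change of -0.83 (limma adjusted p = 0.0194) and no overlap between the groups. Another (1371232_a_at) did not pass the test, with signals of 189, 167, 209.7 and 135 in dexamethasone-treated cultures, against 283, 244, 191 and 328 in control cultures and a log2 fold change of -0.57 (limma adjusted p = 0.184). These 3 probe sets therefore gave negative values of different size. The remaining 2 were not tested, with 48.1 to 83.2 over the 8 arrays for 1388265_x_at and 1.55 to 29.7 for 1371233_at, both below the level of genes of other tissues. With the mean of all 5 probe sets in place of the strongest, the log2 fold change was -0.54 and the call was lost (limma adjusted p = 0.179). With the beta-actin ratio as a covariate it was -1.48 (limma adjusted p = 0.0833).

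**Figure D2:**
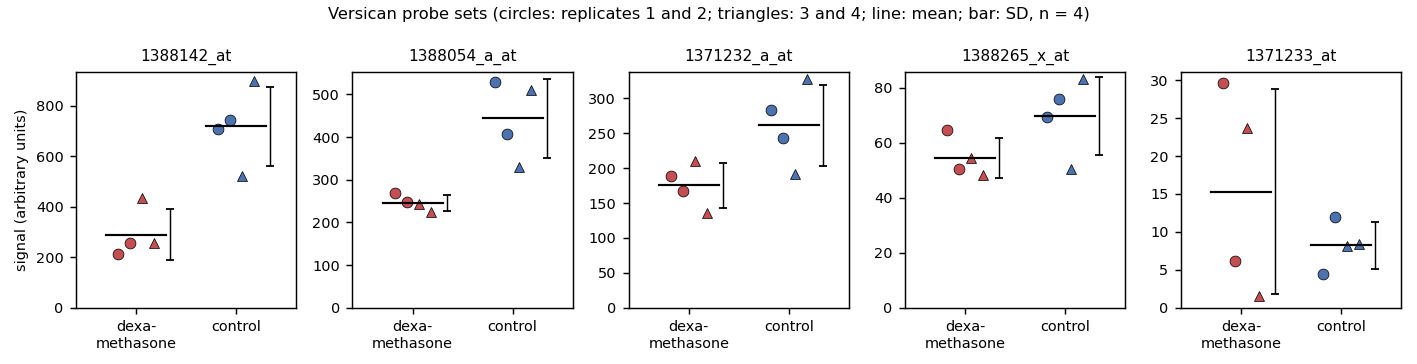
Signal in arbitrary units (y axis, a scale of its own in each panel, starting at 0) of the 5 versican probe sets in dexamethasone-treated and control cultures; circles are replicates 1 and 2, triangles replicates 3 and 4, lines the mean and bars the SD (n = 4). In the first panel the dexamethasone arrays lie at 212 to 436 and the control arrays at 522 to 899, without overlap.

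Collagen XII is a fibril-associated collagen that bridges neighbouring collagen fibrils. Its probe set 1370927_at had signals of 2020.1, 2212, 2172 and 2374 in dexamethasone-treated cultures, against 1623, 1538, 1036 and 1569 in control cultures. All 4 treated cultures were above all 4 controls, and control replicate 3 was the lowest. Means were 2194 ± 146 with dexamethasone and 1441 ± 273 in control (SD, n = 4 each). The log2 fold change was 0.63 (SE 0.14, 95% CI 0.32 to 0.94, limma adjusted p = 0.0376). It was 0.42 on replicates 1 and 2 and 0.83 on replicates 3 and 4. The call was lost when control replicate 2 or any 1 of the 4 dexamethasone arrays was left out (adjusted p = 0.0205 to 0.111 over the 8 arrays left out, limma), and with the beta-actin ratio as a covariate (log2 fold change 0.28, limma adjusted p = 0.538). A second Col12a1 probe set (1398321_a_at) was not tested, with signals of 72.7 to 143 in dexamethasone-treated cultures and 44.4 to 69.5 in control cultures, below the level of genes of other tissues on every array.

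Among the other 7 tested members of this mixed group of collagens none passed the test, and their log2 fold changes were -0.16 to 0.22. Col8a1, a network-forming collagen of vessels and of Descemet's membrane in the eye, had 6514, 6455, 5547 and 5898 in dexamethasone-treated cultures, against 6825, 6757, 7978 and 5812 in control cultures (log2 fold change -0.16, limma adjusted p = 0.494). Col14a1, which like collagen XII coats fibrils, had 4710.2, 4431, 2585 and 3561 in dexamethasone-treated cultures, against 4098, 3400.1, 3024 and 3692 in control cultures (log2 fold change 0.076, limma adjusted p = 0.875). Both overlapped between the groups. The others were Col6a1, Col8a2, Col9a1, Col9a2 and Col26a1.

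Fibrillar collagens did not pass the test in either direction (0 of 8), and 4 had positive and 4 negative values. Col1a2, the second chain of collagen I, had signals of 704, 803, 1409 and 1479 in dexamethasone-treated cultures, against 1278, 1338, 1769 and 1935 in control cultures. Within each array set both treated cultures were below both controls, while over all 8 arrays the groups overlapped, replicates 3 and 4 being higher in both. The same pattern is given below for Fbln2 and Tnc. How often it occurs over all probe sets was not counted, and within a set the smallest two-sided exact permutation p is 0.333. The log2 fold change was -0.58 (SE 0.24, 95% CI -1.10 to -0.056, limma adjusted p = 0.261), and with array set as a blocking term the same difference passed the test (limma adjusted p = 0.0139). A second Col1a2 probe set (1387854_at) gave -0.59, with an adjusted p of 0.525 without and 0.0446 with array set as a blocking term (limma), and both probe sets also passed on replicates 1 and 2 alone.

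Col1a1, the other chain of collagen I, had 837, 1190.0, 1772 and 1166 in dexamethasone-treated cultures, against 1049, 1124, 1091 and 1211 in control cultures and a log2 fold change of 0.10 (limma adjusted p = 0.847). Its weaker probe set (1388116_at) had 252, 489, 462 and 370.4 in dexamethasone-treated cultures, against 194, 348, 96.5 and 207 in control cultures and a log2 fold change of 0.99 (limma adjusted p = 0.163). Neither chain of collagen I passed the test over all arrays. Col11a1, a minor chain that sets fibril width, had signals of 1521, 1476, 1728 and 1384 in dexamethasone-treated cultures, against 1236, 1084, 413 and 1088 in control cultures. The groups did not overlap (two-sided exact permutation p = 0.0286), control replicate 3 lay far below the other controls, and the log2 fold change of 0.79 (95% CI 0.18 to 1.40) did not pass the test (limma adjusted p = 0.185). Its second probe set was 88.6 to 189 in dexamethasone-treated cultures and 80.5 to 170.1 in control cultures and above the level of genes of other tissues on no array. Col5a2 had 5872, 6227, 7347 and 6375 in dexamethasone-treated cultures, against 5688, 5806, 5051 and 6169 in control cultures (log2 fold change 0.18, limma adjusted p = 0.364), and Col3a1, the collagen of reticular fibres, had 1634, 2002, 2409.7 and 2593 in dexamethasone-treated cultures, against 2283, 2129, 2513 and 2509.6 in control cultures (log2 fold change -0.15, limma adjusted p = 0.670). Both overlapped. Col5a1 had a log2 fold change of -0.31.

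All 7 collagens of the basement membrane and its anchoring zone had positive values, from 0.0057 for Col18a1 to 0.66 for Col7a1, and 0 of 7 passed the test. Within the array sets Col15a1 was negative on replicates 1 and 2, and Col18a1 and Col4a4 were negative on replicates 3 and 4. With the beta-actin ratio as a covariate Col15a1, Col4a1 and Col4a2 were negative (-0.16, -0.025 and -0.016), and the others stayed positive. Col4a5, a chain of the collagen IV network found in mature basement membranes, had 2849, 2617, 3648 and 3414 in dexamethasone-treated cultures, against 2504, 2344, 2390.2 and 3000.4 in control cultures. Its log2 fold change was 0.29 (95% CI 0.013 to 0.56, unadjusted p = 0.0416, limma adjusted p = 0.287), and the groups overlapped in part, dexamethasone replicates 3 and 4 being the highest. Col4a1, a chain of the common collagen IV network, had 1512, 2025, 2142 and 1584 in dexamethasone-treated cultures, against 1645, 1708, 1293 and 2008 in control cultures and a log2 fold change of 0.13 (95% CI -0.21 to 0.46, limma). Col18a1, the source of endostatin, had an interval of -0.23 to 0.24, which lay within 1.3-fold. Signals of Col7a1 (anchoring fibrils) and Col4a4 were above the level of genes of other tissues on no array. Col4a2 and Col15a1 had log2 fold changes of 0.15 and 0.067.

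Laminins are trimers of an alpha, a beta and a gamma chain, and 0 of 6 tested chains passed the test. Lamb2, the beta chain of mature basement membranes, had signals of 1099, 1446, 1121 and 1119 in dexamethasone-treated cultures, against 1051, 762, 1039 and 909 in control cultures. Every treated culture was above every control (two-sided exact permutation p = 0.0286), by a log2 fold change of 0.35 (95% CI 0.049 to 0.65, limma adjusted p = 0.234). Lamc1, the gamma chain shared by most laminins, had 3637, 3650.1, 3621 and 3358 in dexamethasone-treated cultures, against 3254, 3097, 3001 and 3321 in control cultures, also without overlap, and a log2 fold change of 0.17 with a narrow 95% CI of -0.0049 to 0.35 (limma adjusted p = 0.329). A weaker Lamc1 probe set (1370993_at) overlapped between the groups and gave 0.26 (95% CI -0.20 to 0.72, limma adjusted p = 0.595). Lama5, the main alpha chain of many adult epithelia, had 1245, 1467, 996 and 1103 in dexamethasone-treated cultures, against 996, 796, 1207 and 834 in control cultures (log2 fold change 0.33, limma adjusted p = 0.337), and control replicates 1 and 3 reached the treated range. Lama3, the alpha chain of laminin-332, had a log2 fold change of -0.058. Lama2 was above the level of genes of other tissues on no array and Lamb1 on 2, so their values of -0.42 and 0.58 rest on signals near that level.

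Nidogens and perlecan, which join the laminin and collagen IV networks, gave 0 of 3. Nid1 (nidogen) had 1955, 1412, 1385 and 1245 in dexamethasone-treated cultures, against 2162, 1578, 1385 and 1098 in control cultures (log2 fold change -0.031, limma adjusted p = 0.964), and Hspg2 (perlecan) had 429, 488, 321 and 267 in dexamethasone-treated cultures, against 344, 315, 449 and 336 in control cultures (log2 fold change 0.034, limma adjusted p = 0.960). Hspg2 was 0.48 on replicates 1 and 2 and -0.41 on replicates 3 and 4. The signs of the 2 sets differed, and their difference did not pass the test (interaction limma adjusted p = 0.787). Nid2 had a log2 fold change of -0.29.

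Beside versican, 2 of the 4 small leucine-rich proteoglycans, which bind collagen fibrils, were tested. Bgn (biglycan) had 1740.0, 1856, 1283 and 1245 in dexamethasone-treated cultures, against 1783, 1241, 1523 and 1547 in control cultures, and the log2 fold change was -0.0039 (95% CI -0.35 to 0.34, limma). Fmod (fibromodulin) had 3607, 3255, 1629 and 1429 in dexamethasone-treated cultures, against 2908, 1972, 1396 and 1576 in control cultures. The spread of Fmod lay between array sets rather than between treatments, and the log2 fold change of 0.28 had an interval of -0.39 to 0.95. Dcn (decorin) and Lum (lumican), the usual proteoglycans of fibroblast stroma, were above the level of genes of other tissues on no array, at 71.7 to 136 and 30.4 to 63.1.

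Among elastic fibre proteins 0 of 5 passed the test over all arrays. Fbln2 (fibulin-2), which links elastic fibres and basement membranes, had signals of 1521, 1296, 578 and 609.8 in dexamethasone-treated cultures, against 1951, 2002, 1854 and 1168 in control cultures. Within each array set both treated cultures were below both controls, and the overlap over all arrays lay in control replicate 4, which was lower than dexamethasone replicates 1 and 2. Its log2 fold change was -0.90 (SE 0.30, 95% CI -1.56 to -0.24, limma adjusted p = 0.162), -0.49 on replicates 1 and 2 and -1.31 on replicates 3 and 4. With array set as a blocking term it passed the test (limma adjusted p = 0.0192). Fbn1 (fibrillin-1), the backbone of microfibrils, had 538, 566, 658 and 632 in dexamethasone-treated cultures, against 820.3, 758, 599 and 597 in control cultures and a log2 fold change of -0.20 (limma adjusted p = 0.523). Fbln5, which elastic fibre assembly needs, Fbln1 and Eln had log2 fold changes of 0.19, 0.11 and -0.31, and Eln (elastin) was above the level of genes of other tissues on 1 array.

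Fibronectin (Fn1), the glycoprotein that cells assemble into the first fibrils of a new matrix, gave 9159, 9701, 10014 and 10284 in dexamethasone-treated cultures, against 9134, 9384, 10822 and 9918 in control cultures. Its log2 fold change was -0.0019, with a 95% CI of -0.17 to 0.16 (limma) that leaves room for a change of less than 1.3-fold either way. The same held for Ccn2 (connective tissue growth factor), at 7832, 7729, 8284 and 7916 in dexamethasone-treated cultures, against 7630.4, 7174, 8710.1 and 7844 in control cultures (interval -0.15 to 0.19). Tnc (tenascin-C), an anti-adhesive protein of remodelling tissue, had 5635, 5988, 7224 and 5575 in dexamethasone-treated cultures, against 6462, 7009, 7887 and 8094 in control cultures. Within each array set both treated cultures were below both controls. The overlap over all arrays lay in dexamethasone replicate 3, which was above control replicates 1 and 2. The log2 fold change of -0.27 (95% CI -0.50 to -0.044) had an unadjusted p of 0.0235 and an adjusted p of 0.222 (limma). With array set as a blocking term it did not pass the test (limma adjusted p = 0.0949). Ccn1 and Postn (periostin) had log2 fold changes of -0.28 and 0.27, and 0 of the 5 genes of this group passed the test.

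Of the 5 enzymes that modify collagen and elastin 0 passed the test. Lox (lysyl oxidase), which starts the crosslinking of collagen and elastin, had signals of 3201, 3438, 3837 and 3300.3 in dexamethasone-treated cultures, against 3197, 2342, 2439.9 and 2567 in control cultures. Every treated culture was above every control, dexamethasone replicate 1 and control replicate 1 by only a narrow margin (two-sided exact permutation p = 0.0286). The log2 fold change was 0.39 (SE 0.11, 95% CI 0.15 to 0.64, limma adjusted p = 0.0952), and without control replicate 1 it was 0.49 and passed the test (limma adjusted p = 0.0353). A second Lox probe set (1368172_a_at) overlapped between the groups and gave 0.28 (limma adjusted p = 0.428). Loxl1, a related oxidase of elastic fibres, had 3695, 4416, 4819 and 5313 in dexamethasone-treated cultures, against 4523, 3941, 6272 and 5479 in control cultures (log2 fold change -0.14), and Plod2, a lysyl hydroxylase of collagen telopeptides, had 3593, 3545, 4061 and 4164 in dexamethasone-treated cultures, against 3138, 3364, 3673 and 3558 in control cultures (log2 fold change 0.16). Both overlapped. P4ha1, a catalytic subunit of prolyl hydroxylase, was lower in all 4 treated cultures than in every control, at 1049.6, 954, 1088 and 1051 in dexamethasone-treated cultures, against 1147, 1202, 1194 and 1139.7 in control cultures, and this difference of -0.18 did not pass the test (limma adjusted p = 0.405). Plod1 had a log2 fold change of -0.094.

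**Figure D3:**
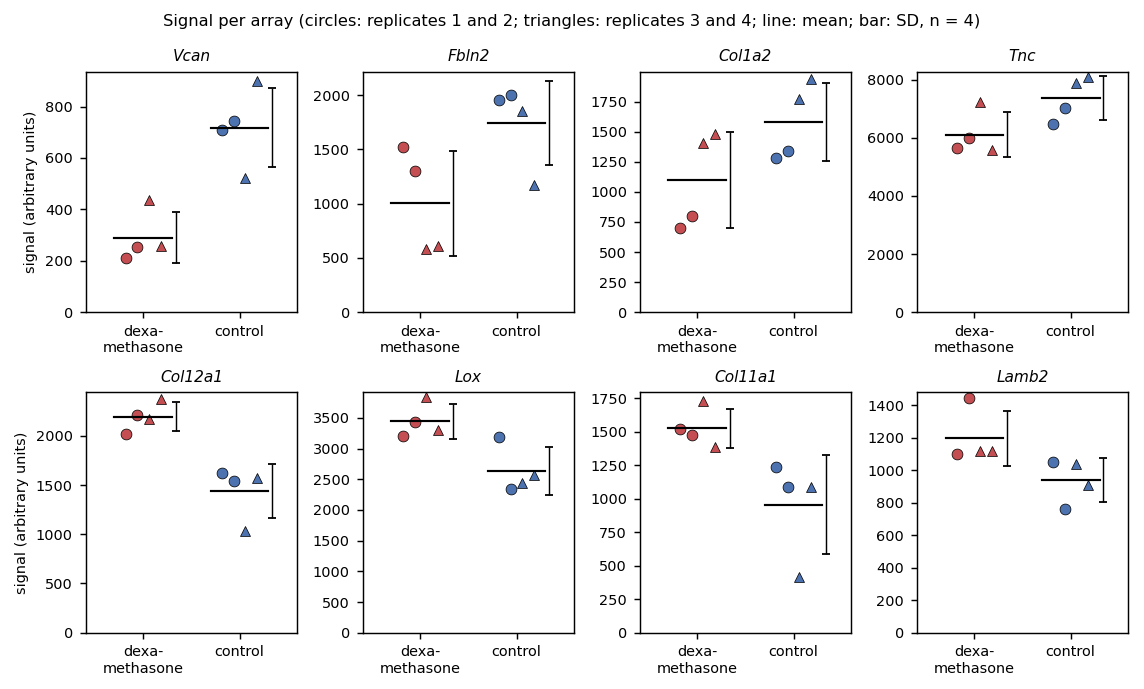
Signal in arbitrary units (y axis, a scale of its own in each panel, starting at 0) of 8 matrix genes in dexamethasone-treated and control cultures; circles are replicates 1 and 2, triangles replicates 3 and 4, lines the mean and bars the SD (n = 4). The upper row holds genes with a negative log2 fold change and the lower row genes with a positive one. For Col1a2, Fbln2 and Tnc the treated points lie below the control points within each array set, although the groups overlap. How often this occurs over all probe sets was not counted.

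With array set as a blocking term, 4 of 50 matrix genes passed the test (8%), against 5.57% of all probe sets. Higher with dexamethasone was Col12a1 (2%, against 3.32% of all probe sets), and lower were Vcan, Fbln2 and Col1a2 (6%, against 2.26%). The last 3 also passed on replicates 1 and 2 alone (6%, against 4.24% of all probe sets), where 0 were higher (against 2.76%) and 3 lower (against 1.49%). On replicates 3 and 4 alone, 0 of 50 passed, against 0.203% of all probe sets (limma; 0.183% higher and 0.0193% lower). Of the 50 genes 35 had the same sign in both sets. A test of the difference between the sets in the effect of dexamethasone called 0 matrix genes, against 0.0% of all probe sets, and 7 matrix genes had an unadjusted p under 0.05 (14%, against 5.66% of all probe sets, limma): Fbln2, Fbn1, Col1a2, Col2a1, Lamb1, Hspg2 and Bgn. With the beta-actin ratio as a covariate, 0 of 50 passed, against 0.627% of all probe sets (0.55% higher and 0.0772% lower). That ratio did not overlap between the groups, so this fit cannot fully separate it from the treatment. Of the genes known to be induced by glucocorticoids, Per1, Dusp1 and Scnn1a lost the call in it. Sgk1, Fkbp5, Tsc22d3 and Klf9 kept the call.

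Promoter windows are shown for the 3 genes that were lower with array set as a blocking term. They come from RefSeq (GRCr8), from 250 bases before to 50 bases after the annotated start, and 46 of the 60 genes had one. For Vcan, which has 2, the more upstream is shown. Capitals mark matches, on either strand, to a CCAAT box (CCAAT, read as ATTGG on the other strand), a GC box (GGGCGG or CCGCCC) or a TATA box (TATAAA).
Vcan, chr2:22595906-22596205, minus strand: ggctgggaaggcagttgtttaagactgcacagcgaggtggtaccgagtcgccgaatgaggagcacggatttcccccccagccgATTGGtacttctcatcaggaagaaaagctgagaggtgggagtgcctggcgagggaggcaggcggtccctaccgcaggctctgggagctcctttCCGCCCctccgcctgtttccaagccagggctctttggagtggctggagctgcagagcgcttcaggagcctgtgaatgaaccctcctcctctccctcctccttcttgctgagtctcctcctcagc
Col1a2, chr4:33518307-33518606, plus strand: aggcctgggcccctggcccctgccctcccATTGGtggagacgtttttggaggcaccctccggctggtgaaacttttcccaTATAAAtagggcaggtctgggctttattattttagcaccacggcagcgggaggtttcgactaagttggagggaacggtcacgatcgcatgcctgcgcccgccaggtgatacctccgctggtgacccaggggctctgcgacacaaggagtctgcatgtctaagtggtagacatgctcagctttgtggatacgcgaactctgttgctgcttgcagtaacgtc
Fbln2, chr4:125261409-125261708, plus strand: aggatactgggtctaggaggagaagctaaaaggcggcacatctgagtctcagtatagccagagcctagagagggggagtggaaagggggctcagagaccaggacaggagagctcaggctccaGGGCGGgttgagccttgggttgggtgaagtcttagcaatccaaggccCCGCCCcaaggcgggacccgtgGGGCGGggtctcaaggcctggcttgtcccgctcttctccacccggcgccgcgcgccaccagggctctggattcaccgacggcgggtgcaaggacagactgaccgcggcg
Vcan had a CCAAT box at -167 and a GC box at -74 from its start, Col1a2 a CCAAT box at -221 and a TATA box at -170, and Fbln2 3 GC boxes at -128, -81 and -59. The 50 bases after the Col1a2 start open with ATG and hold no stop codon in that frame, so this start may be that of translation. The Col1a2 positions may then not be distances from the start of transcription. None of the 3 windows held the glucocorticoid receptor half-site TGTTCT or the AP-1 site TGANTCA.

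Of the 46 genes 17.4% held the half-site TGTTCT on either strand, against 21.6% of 27457 genes with windows of the same length. The full palindrome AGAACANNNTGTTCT, which contains that half-site, was in 0 of the 46 and in 0.00728% of all genes. TGANTCA was in 4.35% of members and 8.04% of all genes, CCAAT in 28.3% and 39.6%, TATAAA in 15.2% and 15.3%, and GGGCGG in 60.9% and 36%. These are matches of letters in short windows and say nothing of binding.

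Between the array sets, 9 of 50 matrix genes passed the test of replicates 3 and 4 against replicates 1 and 2 (18%), against 3.49% of all probe sets (362 of 10368). This contrast was added after the signals had been seen. Lower in replicates 3 and 4 were Col2a1, Col9a1, Col11a2, Fmod, Fbln2 and Ccn1, a secreted regulator of adhesion (6 of 50, 12%, against 2.0% of all probe sets). Col1a2, Postn and Loxl1 were higher (3 of 50, 6%, against 1.49%). Col2a1 had 1233 and 997 with dexamethasone and 670.1 and 702 in control on replicates 3 and 4, against 2325 and 1804 with dexamethasone and 2126 and 1842 in control on replicates 1 and 2. Col9a1 had 1916 and 1648 with dexamethasone and 1393 and 1699.6 in control on replicates 3 and 4, against 4191 and 3039 with dexamethasone and 3782 and 3069.8 in control on replicates 1 and 2. For both genes all 4 arrays of replicates 3 and 4 were below all 4 of replicates 1 and 2, with differences of -1.21 and -1.08 on the log2 scale (limma adjusted p = 0.00592 and 0.00393).

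Fmod differed by -0.93 (limma adjusted p = 0.0103), Fbln2 by -0.83 and Ccn1 by -0.64. Col11a2, at 64.5 to 194, was above the level of genes of other tissues on 1 of 8 arrays, so its difference of -0.88 rests on signals near that level. Of the collagens IX and XI, Col9a2 and Col11a1 did not pass the test (-0.37 and -0.37, limma adjusted p = 0.305 and 0.434). Col1a2 had 1409 and 1479 with dexamethasone and 1769 and 1935 in control on replicates 3 and 4, against 704 and 803 with dexamethasone and 1278 and 1338 in control on replicates 1 and 2 (difference 0.72, limma adjusted p = 0.0110). Its second probe set differed by 1.28 in the same direction (limma adjusted p = 0.00393). Postn had 1522 and 1842 with dexamethasone and 993 and 1393 in control on replicates 3 and 4, against 875 and 924 with dexamethasone and 948 and 809.5 in control on replicates 1 and 2 (difference 0.66, limma adjusted p = 0.0353), and Loxl1 differed by 0.40. The second Col2a1 probe set (1371226_at) differed by -0.80 and did not pass the test (limma adjusted p = 0.0792). When each of the 8 arrays was left out in turn, Col2a1 and Col9a1 passed in 8 of 8 fits, Fmod in 7, Col1a2 in 6 and Ccn1 in 3, and Col11a2, Fbln2, Postn and Loxl1 in 1 each. All 9 markers of cartilage and bone that had a probe set, with Acan (aggrecan), Comp, Hapln1 and Cnmd among them, were above the level of genes of other tissues on no array, and their summed signal was 227 to 405 on replicates 3 and 4 and 387 to 471 on replicates 1 and 2. Neither the labels nor the methods say in what the array sets differ, and what sets these genes apart was not tested.

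Of 36 tested marker genes of epithelium and of other cell types 1 differed between the array sets, against 3.49% of all probe sets. Its part in the matrix results was not tested. Lyz2, a lysozyme of macrophages, had 48.8 and 78.4 with dexamethasone and 173 and 88.5 in control on replicates 3 and 4, against 3415 and 969 with dexamethasone and 433 and 351 in control on replicates 1 and 2 (difference -3.27, limma adjusted p = 0.0216). The summed signal of the 11 macrophage markers was 1033 to 1506.5 on replicates 3 and 4 and 1279.7 to 5088 on replicates 1 and 2. That of the epithelial markers was 55518 to 64959 on replicates 3 and 4 and 52982 to 55206 on replicates 1 and 2, and that of the 9 neuronal and Schwann cell markers 1079 to 1251 on replicates 3 and 4 and 1434 to 1708 on replicates 1 and 2, both without overlap. Among the 20 other secreted matrix genes, Ltbp4, Prelp and Ntn1 were lower (-0.76, -0.84 and -0.95) and Igfbp7 was higher (0.61) in replicates 3 and 4, and among the 15 matrix receptors Itga7 and Ddr1 were lower (-0.96 and -0.52). Of the 15 genes of collagen folding, processing and crosslinking 0 passed (limma).

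**Figure D4:**
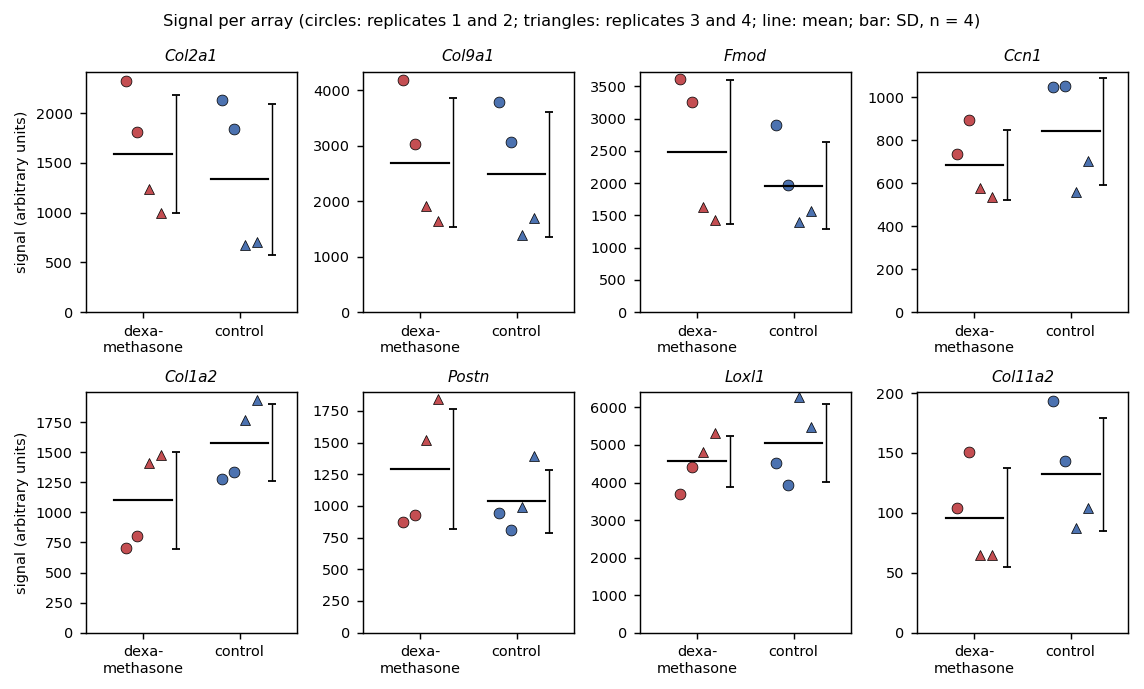
Signal in arbitrary units (y axis, a scale of its own in each panel, starting at 0) of 8 of the 9 matrix genes that differed between the array sets, in dexamethasone-treated and control cultures; circles are replicates 1 and 2, triangles replicates 3 and 4, lines the mean and bars the SD (n = 4). In the panels of Col2a1 and Col9a1 all 4 triangles lie below all 4 circles, with overlap between the treatments.

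**Figure D5:**
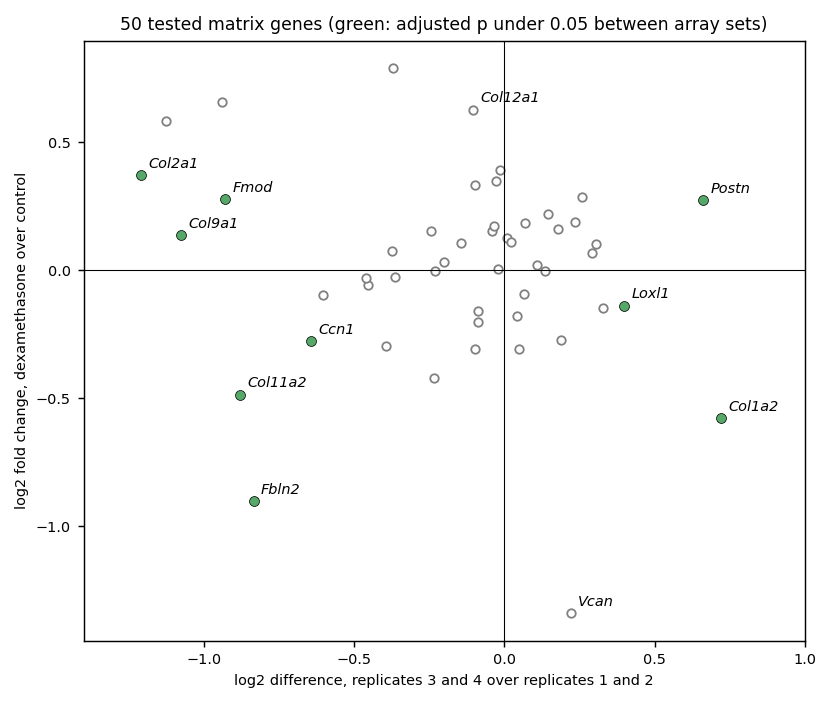
Log2 difference of replicates 3 and 4 over replicates 1 and 2 (x axis) and log2 fold change of dexamethasone over control (y axis) for the 50 tested matrix genes, 1 point per gene. The 9 green points passed an adjusted p of 0.05 between the array sets, and Vcan and Col12a1, the 2 genes that changed with dexamethasone, lie at 0.22 and -0.10 on the x axis.

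The genes that act on or beside these proteins were taken from fixed lists. Their counts stand beside 1.88% of all probe sets tested that were higher with dexamethasone and 0.81% that were lower. Of 15 tested integrins and other matrix receptors 0 passed the test, and Cd44, the hyaluronan receptor, had 474, 442, 528 and 537 in dexamethasone-treated cultures, against 608, 738, 987 and 711 in control cultures without overlap (log2 fold change -0.60, limma adjusted p = 0.0610, and 0.0211 with array set as a blocking term). Of 15 tested genes of collagen folding, processing and crosslinking 1 rose, Tgm2 (transglutaminase 2, which crosslinks fibronectin and collagen), at 2935, 3414, 3029 and 2583 in dexamethasone-treated cultures, against 1191, 1115, 1334 and 1783 in control cultures (log2 fold change 1.16, limma adjusted p = 0.00128). Of 20 other secreted matrix genes 3 rose and 0 fell. Ogn (osteoglycin) had 527, 598, 697 and 711 in dexamethasone-treated cultures, against 225, 228, 180.0 and 196 in control cultures (log2 fold change 1.61, limma adjusted p = 7.03e-05). Omd (osteomodulin) had 152, 194, 119 and 146 in dexamethasone-treated cultures, against 79.0, 74.8, 48.5 and 51.2 in control cultures (1.28, limma adjusted p = 0.0215), on no array above the level of genes of other tissues. Tgfbi, an adhesion protein induced by transforming growth factor beta, had 233, 218, 226 and 255 in dexamethasone-treated cultures, against 144, 132, 126 and 173 in control cultures (0.71, limma adjusted p = 0.0403). Tgfbi was above the level of genes of other tissues on 5 arrays. Ogn and Omd belong to the same family of leucine-rich proteoglycans as Bgn and Fmod, whose values overlapped between the groups.

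With dexamethasone 5 of 36 tested marker genes of epithelium and of other cell types changed, against 2.69% of all probe sets. Their part in the matrix results was not tested. Krt18, a simple epithelial keratin, was lower (-0.47, limma adjusted p = 0.0300; 1 of 12 epithelial genes), and the summed signal of the epithelial list was 53440 to 58499 with dexamethasone and 52982 to 64959 in control. Cdh11, a mesenchymal cadherin, was higher (1.17, limma adjusted p = 0.00671; 1 of 9 tested fibroblast genes). Of 4 tested endothelial genes Kdr was higher (2.00) and Flt1 lower (-1.96). Flt1 was above the level of genes of other tissues on 1 array, so its value rests on signals near or below that level. Of the 11 endothelial genes with a probe set, 7 were above it on no array. Gpnmb was higher on the melanocyte list (1.34; 1 of 2 tested). Macrophage and neuronal lists had 0 called, of 5 and 3 tested, and the summed macrophage signal was 1358 to 5088 with dexamethasone and 1033 to 1623 in control.

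The 10 members that did not reach a mean signal of 100 were Col5a3, Col6a2, Col6a3, Col10a1, Col19a1, Col27a1, Dcn, Lama1, Lama4 and Lum, and 0 of them was above the level of genes of other tissues on any array. They include 2 chains of collagen VI, which is made by stromal cells, and 2 laminin alpha chains. Col6a1, another collagen VI chain, was tested at 61.7 to 206 and was above that level on 2 arrays. Over all 60 genes, 40 were above it on all 8 arrays, 7 on some and 13 on none.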

How the data were processed

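Total RNA of 4 dexamethasone-treated and 4 control cultures was labelled by the authors with 2 cycles of in vitro transcription, which start at the 3' end and can dim probes far from it, and hybridized to Affymetrix rat arrays. The deposited values are signal intensities per probe set on a linear scale, made by the authors with the Affymetrix statistical algorithms, and per the labels scaled to a target of 500. The paper names an A and a B chip of this array type, and the titles of the samples used here end in A. Values of B chips were not used. Detection calls and probe-level values were not used here, and the number of arrays limits the precision.

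Each array was rescaled to a trimmed mean of 500 (2% left out at each end), a floor of 16 was applied, and the signals were put on a log2 scale. Where the 8 arrays averaged 100 or more, the probe set entered a two-sided limma 3.58.1 fit (R 4.3.3; lmFit, then eBayes with a trend), with Benjamini-Hochberg adjustment over all 10368. The fit was tested on simulated data. Gene symbols came from the platform annotation, and 17 of the 60 genes had several probe sets, of which the strongest was used.

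The members and lists were chosen with earlier results of these data known. Values on every array are given for genes past an adjusted or unadjusted p of 0.05 and for the 2 of highest signal in each role. Col2a1, Col9a1, Col11a2, Ccn1 and Postn were named after their values were seen, as were P4ha1, Col1a1, Cd44 and Lyz2. The other members are given by their fold change or count only. Weaker tested probe sets of Col4a1, Col5a2, Fbn1 and Nid1 gave log2 fold changes of 0.055, 0.050, -0.25 and -0.16, and none passed the test (limma). The alternatives were other scalings, filters, floors and variance models, the replicate number or the array set as a block, each array set alone, the beta-actin ratio as a covariate, a gene's probe sets averaged, a fold limit with no test, and leaving out each array. Alternatives for the contrast between array sets were added after the data were seen.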

Additional observations from a re-analysis of the deposited data

Results flagged for a closer look

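In 5 of 64 groups of 4 arrays, 1 array lay apart from the other 3, its gap to the nearest being above Dixon's 95% critical share of the group's range, which chance gives in about 1 group in 20. Control replicate 3 was the lowest control for Col12a1 (signal 1036) and for Col11a1 (413), and control replicate 4 was the lowest for Fbln2 (1168). Dexamethasone replicate 2 was the highest treated culture for Lamb2 (1446), and dexamethasone replicate 4 the lowest for Lamc1 (3358). Control replicate 3 also needed the largest rescaling of the 8 arrays (a factor of 2.48) and had the highest beta-actin 3' to 5' ratio (13.7). Without it, the log2 fold change of Col12a1 was 0.47 (limma adjusted p = 0.0205) and that of Col11a1 0.42 (limma adjusted p = 0.0786). Without control replicate 4, that of Fbln2 was -1.08 (limma adjusted p = 0.105). Their cause was not tested.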

How the results depend on the processing

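Of 735 comparisons of a named gene with its value under another setting (32 genes, 23 settings), 665 kept their direction and side of the threshold, 7 gained and 17 lost the call, and 46 changed sign, all of genes that did not pass the test in the fit reported. 17 of the 32 genes kept their direction under every setting run. Vcan and Col12a1 were among them. Of the 32 genes only Vcan and Col12a1 had a call to lose, so all 17 losses were theirs. Col12a1 lost it with the covariate, median centring, no filter, no trend, signals as deposited or either array set alone. It also lost it in some of the 8 fits with 1 array left out. Vcan lost it with the covariate, no filter, signals as deposited, probe sets averaged, or the array set of lower deposited signal alone. Vcan passed in all 8 fits with 1 array left out (adjusted p = 0.00123 to 0.0282 from limma).

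The number of changed probe sets was 279, and it was 578 with the array set as a block, 440 on replicates 1 and 2, 21 on replicates 3 and 4, 102 with no filter, 65 with the beta-actin ratio as a covariate and 38 with signals as deposited, which moved the median log2 fold change of all probe sets to 0.14, against -0.023. Leaving out 1 array gave 180 to 275, lowest without dexamethasone replicate 2 and 184 without dexamethasone replicate 1. The number of matrix genes higher with dexamethasone, 1 in the fit reported, was 0 with the covariate, median centring, no filter, no trend, signals as deposited, or either array set alone, 5 by a 1.3-fold limit without a test, and 0 to 2 with 1 array left out (2 without control replicate 1, as Lox joined). Those lower, also 1, were 3 with the array set as a block or on replicates 1 and 2, 5 at the fold limit, and 0 with the covariate, no filter, signals as deposited, replicates 3 and 4, or a gene's probe sets averaged. With 1 array left out they were 1 to 1. The fold limit named 10 genes of 50, against 14.4% of all probe sets. The median log2 fold change of the matrix genes, 0.051, was 0.21 with signals as deposited and -0.015 to 0.12 with 1 array left out.

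Other matrix and receptor genes that changed numbered 4, and 2 with the covariate, a filter at 200, no filter or replicates 1 and 2, 1 with replicates 3 and 4 or signals as deposited, and 2 to 4 with 1 array left out (2 without control replicate 3 or dexamethasone replicate 1, 2 or 4). Markers of epithelium and of other cell types that changed numbered 5. They numbered 1 with the covariate, no filter, replicates 3 and 4 or signals as deposited. With 1 array left out they numbered 3 to 6 (3 without dexamethasone replicate 2). Matrix genes higher on replicates 3 and 4 than on 1 and 2 numbered 3, and 8 with median centring, 0 with no filter, 1 with no trend and 0 to 5 with 1 array left out (5 without control replicate 3). Those lower numbered 6, and 1 with no filter and 2 to 9 with 1 array left out (2 without dexamethasone replicate 2). The causes of these changes were not tested.

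The sign changed in these values (log2 fold changes). With the covariate, Bgn was 0.055, Fn1 0.087, Loxl1 0.081, Col14a1 -0.12, Col4a1 -0.025, Col2a1 -0.23 and Col9a1 -0.34. With signals as deposited, Bgn was 0.16, Fn1 0.16, Loxl1 0.025, Col3a1 0.017, Col8a1 0.0042 and Nid1 0.13. On replicates 3 and 4, Ccn2 was -0.030, Fbn1 0.11, Col14a1 -0.14, Nid1 0.090 and Hspg2 -0.41, and on replicates 1 and 2, Bgn was 0.27, Fn1 0.026 and Col1a1 -0.12. Bgn was 0.0016 and Fn1 0.0035 with median centring, Bgn 0.0032 and Fn1 0.053 with quantile normalization, and Lama5 -0.11 with probe sets averaged. With 1 array left out, Bgn was -0.10 to 0.088, Fn1 -0.035 to 0.046, Ccn2 -0.020 to 0.073, Col14a1 -0.037 to 0.25, Nid1 -0.18 to 0.14, Hspg2 -0.10 to 0.19, Col9a1 -0.11 to 0.38 and Col1a1 -0.088 to 0.27.

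The replicate numbers of the labels were not taken to pair the samples, since the deviations of same-numbered samples from their group means correlated at 0.35, 0.25, 0.035 and 0.41 (replicates 1 to 4) and controls 3 and 4 correlated best with another number. For its electrophysiology the paper states that cultures were paired within a batch of canals, and it does not say this of the arrays. With the replicate block 484 probe sets and 1 higher and 3 lower matrix genes passed, Fbln2 (adjusted p = 0.0304) and Col1a2 (adjusted p = 0.0265, limma) beside Vcan and Col12a1.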
